A study of Mus musculus with 105 samples.

Results

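Ribosome footprints of 18 single full-grown oocytes (FGO) are described here, out of 105 samples in the labels and 38 single oocytes in the deposited table. They were chosen by their developmental stage in the labels, not by any measured value. All are wild type, from C57BL/6 female mice whose age is given as 8 or 5 weeks and whose hormones are given as 5 IU of pregnant mare's serum gonadotropin and 5 IU of human chorionic gonadotropin. The labels do not say which age or which hormone applies to the FGO. Lysis was in cycloheximide, which holds ribosomes on the mRNA. RNase I then removed unprotected RNA, and a sucrose cushion was used to collect the ribosomes. Ribosome-protected fragments were sequenced (Ribo-seq) and are given as FPKM per gene, a level relative to gene length and to the sequenced fragments. No spike-in is named, so a level is relative to the other genes of the same oocyte. The labels name no animals, so the 18 oocytes count as 1 sample of the stage. No test was made, and the SD and the ratio SD/mean describe the spread between oocytes, counting error included.

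A full-grown oocyte sits in its follicle at prophase of the first meiosis with transcription largely shut down, and lives on mRNA made and stored during growth. Its ribosomes make the proteins of the zona pellucida (the egg coat), growth factors that act on the surrounding follicle cells, and the subcortical maternal complex, a protein assembly below the plasma membrane that early embryos need. Other stored mRNAs have short poly(A) tails and are kept from translation until the oocyte matures.

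The 4 markers of the stage were above 0 in all 18 oocytes. Ooep, a subunit of the subcortical maternal complex, had 524 FPKM in the lowest oocyte, 2034 in the median and 5584 in the highest. Tle6, of the same complex, had 60.4, 496.5 and 1838 FPKM. Zp3, a protein of the zona pellucida, had 178, 923 and 3126 FPKM. Gdf9, a growth factor for follicle cells, had 133, 798.5 and 5003 FPKM. In these deposited values the highest oocyte was FGO 2 for each of the 4 genes. The lowest was FGO 13 for Ooep, FGO 17 for Tle6 and Zp3, and FGO 18 for Gdf9. FGO 2 also had the largest summed FPKM and FGO 13 the smallest. Divided by the size factors described below, Ooep ran from 992 through a median of 1759 to 3774 and Tle6 from 135 through 375 to 656. Scaled in this way, Zp3 ran from 500 through 891 to 1520 and Gdf9 from 113 through 881 to 2242. The highest oocyte for scaled Gdf9 was FGO 13. No oocyte was at 0 for any of the 4 markers.

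The oocytes differed widely in summed FPKM and in genes above 0. Summed FPKM was 76465 in FGO 13, 254340 in the median oocyte and 677515 in FGO 2, an 8.86-fold range. FPKM are already relative to the sequenced fragments, so their sum is no direct measure of depth. Why the sums differ was not tested. FGO 16, with the fewest genes above 0, had a sum of 266983, above the median. Depth below means the number of genes above 0 unless stated. Genes above 0 numbered 5442 in FGO 16, 7841 in the median oocyte and 10194 in FGO 5, and genes of 1 FPKM or more numbered 4338 to 8826. Oocytes with more genes above 0 had larger FPKM sums (Spearman rho 0.61, n = 18) and more of the reads that could be worked back from low values (rho 0.85, n = 18). These reads numbered 29881 in FGO 14, 70136.5 in the median and 258085 in FGO 2, and cover part of the genes, so they measure relative depth only. Oocytes 1 to 17 are numbered in descending order of genes of 1 FPKM or more, so their numbers follow that count. With recovered reads thinned at random to the total of FGO 14, genes above 0 still ran from 2753 in FGO 16 to 4573 in FGO 5. Because FPKM sums differed this much, levels were also divided by a size factor per oocyte, the median ratio to the geometric mean over genes above 0 in all 18. These scaled levels are named as such throughout. Size factors ran from 0.304 in FGO 17 to 3.61 in FGO 2 and followed the FPKM sum (rho 0.90, n = 18).

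**Figure D1:**
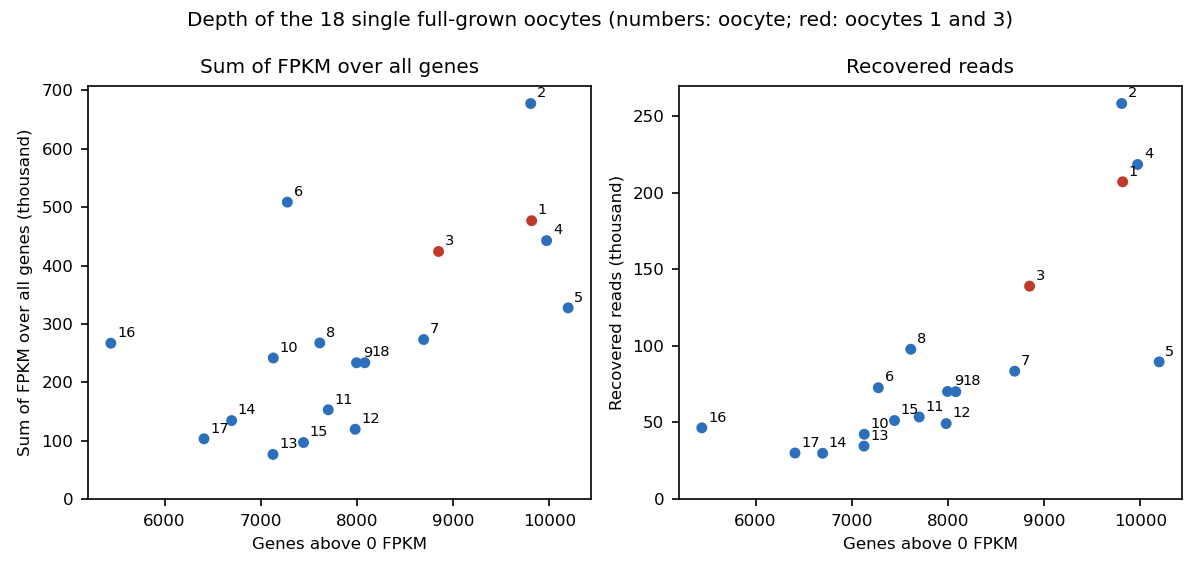
FPKM sum and recovered reads of the 18 full-grown oocytes on the vertical axes against the number of genes above 0 FPKM on the horizontal axis. Each point is 1 oocyte with its number, and oocytes 1 and 3, which list many blood genes, are red. Both measures are higher in oocytes with more genes above 0 (rho 0.61 and 0.85), and FGO 2 stands highest in both with 677515 FPKM and 258085 reads.

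Blood and immune genes were most numerous in FGO 1 and FGO 3. The table holds 18 such genes, of which FGO 1 had 13 above 0 and FGO 3 had 15, against 9 in FGO 8, 8 in FGO 6, 7 in FGO 16 and 0 in FGO 5, 9, 11 and 14. Of all 20756 genes, 9815 were above 0 in FGO 1, 8848 in FGO 3, 7613 in FGO 8, 7276 in FGO 6 and 5442 in FGO 16. That count was 10194 in FGO 5, 7995 in FGO 9, 7701 in FGO 11 and 6697 in FGO 14. The blood and immune list made up 0.257% of FPKM in FGO 1, 0.201% in FGO 3 and 0.166% in FGO 16. S100a9 had 321 and 167 FPKM, Cd74 248 and 194, and Hbb-b1, whose values equal those of Hbb-b2, 104 and 131 in FGO 1 and FGO 3, and Hbb-b1 had 130 in FGO 16. Fcer1g was at 0 in all 18. Of 24 follicle cell markers 4 (FGO 16) to 20 (FGO 5) were above 0 in an oocyte and they made up 0.00204% (FGO 16) to 0.128% (FGO 15) of FPKM. FGO 16 and FGO 5 were also the oocytes with the fewest and the most genes above 0 over all genes. In FGO 15, where 5 of the 24 follicle cell markers were above 0, Inhbb alone had 120 of their summed 124 FPKM. Has2 was at 0 in all, and Fshr, Kitl and Foxl2 averaged 0.239, 0.0917 and 0.427 FPKM, while Inhbb averaged 24.6 FPKM and Gja1, a gap junction gene, 13.0. What part the blood and follicle genes play in the results of these oocytes was not tested. Without FGO 1 and FGO 3 the genes above 0 in all numbered 1870 and the median SD/mean of genes of mean 10 or more was 0.895, against 1852 and 0.882 with all 18 oocytes. Without all 9 oocytes that had a hemoglobin gene above 0, the genes above 0 in all the others numbered 2953, a count that can only grow when oocytes are left out.

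Of 20756 genes in the table, 1852 were above 0 in all 18 oocytes (8.92% of all genes) and 3704 were at 0 in all of them. Of all values above 0, 20.2% were under 1 FPKM. Genes of mean 1 FPKM or more numbered 8692, and 1844 of these were above 0 in every oocyte. Genes of mean 10 or more numbered 2480, of which 1404 were above 0 in every oocyte, and they held 91.4% of the summed mean FPKM. With every oocyte rescaled to an FPKM sum of 1000000, above the deposited sums, genes of mean 10 or more numbered 5525. The 358 genes of mean 100 or more held 69.7%, with 303 of them above 0 in every oocyte. The 27 genes of mean 1000 or more held 39.7%, with 26 of them above 0 in every oocyte. Most of the summed FPKM thus lay in a small part of the genes. A share of FPKM is not a share of reads, since short genes gain more FPKM per read. At the threshold of 10 FPKM lay Cd72 and Narf just above, at means of 10.01 FPKM each, and Naa16 and Ubxn2a just below, at 9.99 and 9.98 FPKM.

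The 20 most translated genes included genes of ribosomes (Rpl41, Rpl39, Rps29), of oxidative phosphorylation (Atp5e, Atp5mpl, Uqcr11, Atp5k), of ubiquitin metabolism (Skp1a, a subunit of SCF ubiquitin ligases, Uchl1, a deubiquitinase, and Ubb, which encodes polyubiquitin), and of the oocyte itself (Ooep, Padi6, Gdf9). Ldhb, the lactate dehydrogenase subunit that serves lactate use, Bpgm, bisphosphoglycerate mutase, Polr2l, an RNA polymerase subunit, the actin-binding thymosins Tmsb10 and Tmsb4x, and Gm20594 and E330017A01Rik made up the rest. They held 25.9% of an oocyte's FPKM in FGO 15, 36.3% in the median oocyte and 45.3% in FGO 17.

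Rpl41, which encodes a very short ribosomal protein, had 442 FPKM in the lowest oocyte, 39193 in the median and 135945 in the highest, with a mean of 51354 ± 40658 (SD, n = 18). It alone made up 0.577% of FPKM in FGO 13, 16.8% in the median oocyte and 25.2% in FGO 1. Divided by the size factor it still had 1182 in FGO 13 against 38164 in the median oocyte, which sets FGO 13 apart for this gene after scaling as well. Mouse ribosomal protein genes have many processed copies, and the sources used here do not say how the authors placed reads that fit several copies, so the level of Rpl41 is uncertain. Short genes also gain many FPKM per read. In the median oocyte 1 read was worth 149 FPKM for Tmsb4x, against a median of 0.585 over genes with recovered reads. No such value was recovered for Rpl41.

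Gm20594 had 1868, 8109 and 21712 FPKM (mean 8797 ± 5767) and Tmsb10 had 340, 6635 and 21888 FPKM (mean 8796 ± 6434) in the lowest, median and highest oocytes. These 2 genes have close to the same mean but not the same oocytes at their ends: scaled Gm20594 was highest in FGO 13, at 35803, where Tmsb10 was lowest, at 909. Skp1a averaged 4110 FPKM, Rpl39 3802, Atp5e 3403, Ldhb 2582 and Uchl1 2567, and the remaining 11 genes, Ooep apart, lay between 1243 (Gdf9) and 1758 FPKM (Rps29). In FPKM as deposited, FGO 13 was the lowest oocyte for 11 of the 20 genes and FGO 17 for 4. Their FPKM sums were also small, at 76465 and 103208 against 254340 in the median oocyte. The ranking depended little on which oocytes counted, since 18 of the 20 genes were also among the 20 of highest median, and the genes lost were Gdf9 and Tmsb4x.

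**Figure D2:**
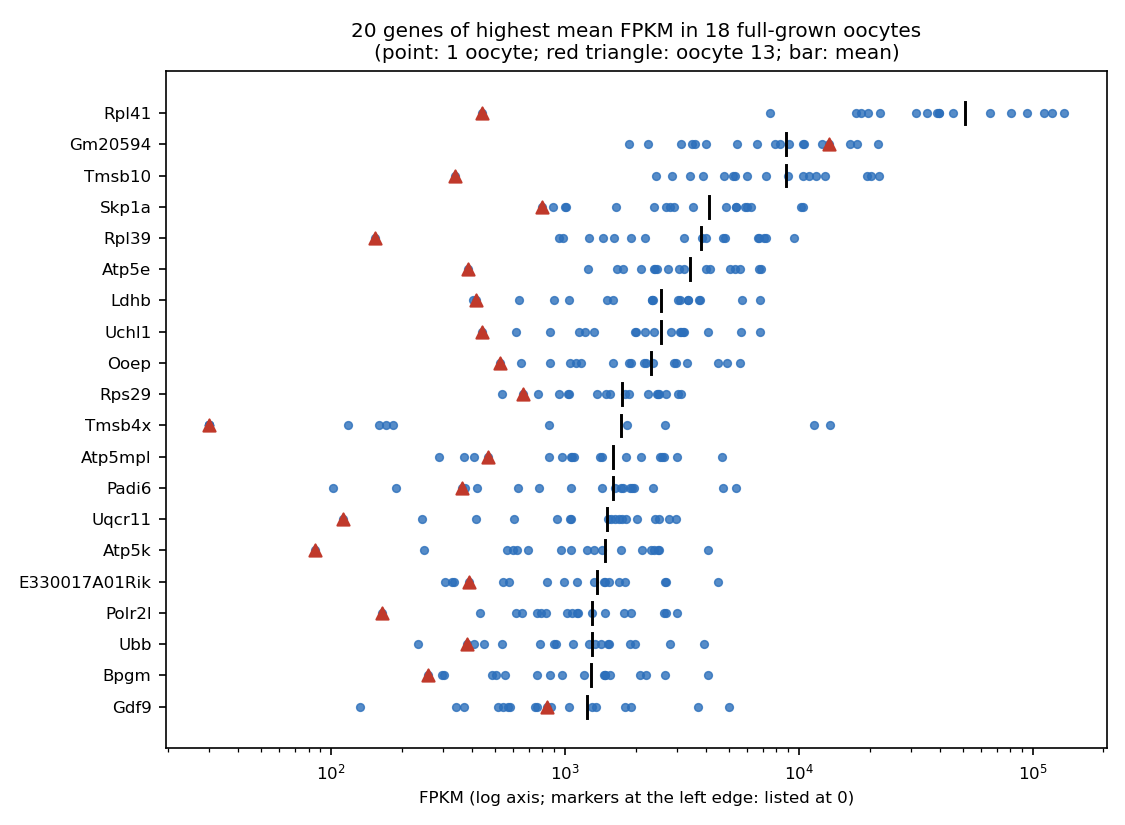
FPKM on a log axis for the 20 genes of highest mean FPKM, one row per gene, where each point is 1 of 18 oocytes, the red triangle is oocyte 13 and the bar is the mean. Markers at the left edge are oocytes listed at 0, which occur for Tmsb4x, above 0 in 9 of 18 oocytes. FGO 13, whose FPKM sum is the smallest, lies at the low end for most genes in these unscaled values, among them Rpl41 at 442 FPKM.

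High level did not assure detection in every oocyte. Of the 358 genes of mean 100 or more, 55 were at 0 in at least 1 oocyte, and FGO 13 was at 0 for 26 of them (17 only there), FGO 18 for 16 (7 only there), FGO 16 for 15 and FGO 17 for 7. For the 38 of the 55 whose reads could be recovered, 1 read was worth a median of 16.4 FPKM, against 4.41 FPKM for the 46 recovered among the 303 genes above 0 in all 18. The part that this value of a read plays in the zeros was not tested. Rpl38, a large subunit ribosomal protein gene, averaged 987 FPKM and was at 0 only in FGO 13. Tmsb4x averaged 1726 ± 4017 FPKM and was above 0 in 9 oocytes, with 58.9 FPKM in the median oocyte, 13528 in FGO 18 and 11561 in FGO 5. A read of Tmsb4x was worth 208 FPKM in FGO 18 and 123 in FGO 5, so these levels stand for 65 and 94 reads. FGO 8 had 22 reads.

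Ordered by role, the lists of genes that an oocyte uses were found at very different completeness. The subcortical maternal complex and its NLRP relatives were above 0 in all 18 oocytes for 16 of 16 genes, against 8.92% of all genes. That share counts genes at 0 in every oocyte. Of the 2480 genes of mean 10 or more, 1404 were above 0 in all. This second share leaves out genes of lower mean, which the lists keep, so it is not a like one. A mean of 10 or more was reached by 15 of these 16 genes, by 10 of 14 zona and secreted factors and by 7 of 14 oocyte transcription factors. Ooep averaged 2318 ± 1484 FPKM, Padi6, an enzyme-like protein of the cytoplasmic lattices, 1596 ± 1445, Nlrp14 1041 ± 999 and Nlrp5, also called Mater, 493 ± 547 (SD, n = 18). Zona pellucida and secreted factors were above 0 in all for 10 of 14 genes: Gdf9 averaged 1243 ± 1250 FPKM, Zp3 1164 ± 843, Zp2 1024 ± 923 and Bmp15, the partner of Gdf9, 603 ± 558. Oocyte transcription factors were above 0 in all for 6 of 14 genes, with Nobox, needed for oocyte growth, at 49.2 ± 43.0 and Lhx8 at 42.9 ± 36.5 FPKM. Sohlh1 and Sohlh2, which act in early oogenesis, were above 0 in 2 oocytes each.

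Factors that store and silence mRNA were above 0 in all for 13 of 24 genes. Over all genes the share was 8.92%, and over genes of mean 10 or more it was 1404 of 2480. The lists also count genes of lower mean, so the latter is not a like share for this and the next lists. Of these 24 genes, 16 had a mean of 10 or more. Zar1 averaged 402 ± 265 FPKM, Eif4e1b, an oocyte cap-binding protein, 339 ± 225, Ybx2, an mRNA-binding protein, 117 ± 95.0 and Cpeb1, which binds the cytoplasmic polyadenylation element, 116 ± 105. Genes whose mRNAs are recruited as oocytes mature, known as maturation-activated, were above 0 in all for 4 of 25 genes (Ccnb2, Ccnb1 and Wee2 among them) and their levels were low, with Tcl1 the highest at 58.6 ± 59.3 FPKM. Of meiotic genes, Pttg1, securin, averaged 1181 ± 829 FPKM and Cks2, a cyclin-dependent kinase subunit, 987 ± 639, and 16 of 33 were above 0 in all. Of chromatin regulators 16 of 32 were above 0 in all, led by Dppa3, a protector of maternal DNA methylation, at 969 ± 719 and H1foo, the oocyte linker histone, at 571 ± 454 FPKM. Small RNA machinery was above 0 in all for 5 of 17 genes.

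Among housekeeping lists, small subunit ribosomal proteins were above 0 in all oocytes for 30 of 31 genes, large subunit ones for 38 of 47, translation factors for 29 of 38, chaperones for 21 of 23, cytoskeleton for 21 of 26, the respiratory chain for 45 of 77, proteasome subunits for 19 of 31, glycolysis and the citric acid cycle for 15 of 33 and antioxidants for 6 of 22. Over all genes it was 8.92%, and over genes of mean 10 or more it was 1404 of 2480, though the lists also count genes of lower mean. A mean of 10 or more was reached by 25 of 31 proteasome subunits and by 21 of 33 genes of glycolysis and the citric acid cycle. Ribosomal proteins of the large subunit held 1.95% of FPKM in FGO 13, 20.0% in the median oocyte and 29.4% in FGO 1. Rpl41 was most of this share in the median oocyte and in FGO 1, though not in FGO 13. The scaled sum of the list in FGO 13 was 0.087 of the median oocyte with Rpl41 and 0.389 without it, over the other 46 genes, and FGO 13 was the lowest oocyte either way. Leaving out Rpl41 was chosen after its values were seen.

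**Figure D3:**
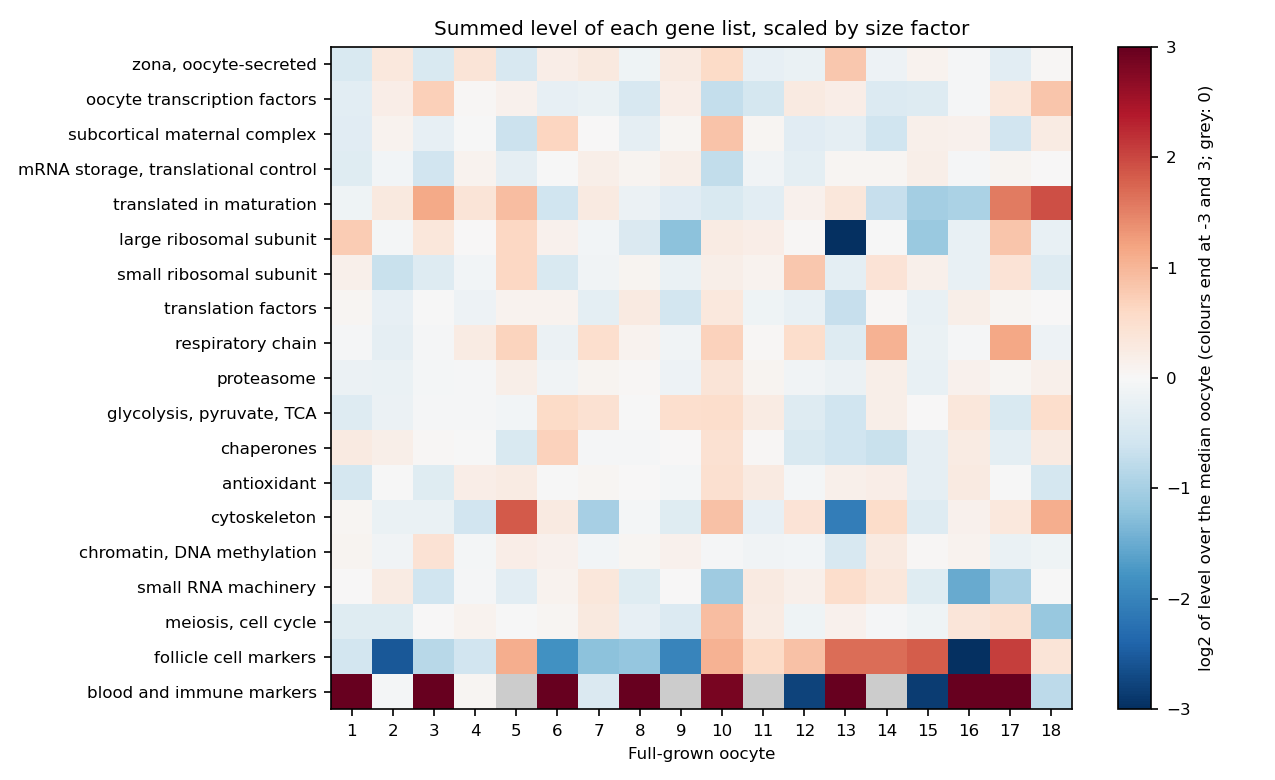
Summed level of each of 19 gene lists in each of the 18 full-grown oocytes, divided by the size factor and shown over the median oocyte on a log2 scale, one row per list and one column per oocyte. FGO 13 is low for large subunit ribosomal proteins (0.087 of the median oocyte, and 0.389 without Rpl41), and FGO 18 is high for maturation-activated genes (3.81 times the median). Colours stop at the ends of the colour bar, and grey marks oocytes whose blood and immune list sums to 0.

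Spread between oocytes was smaller after scaling for most genes. Over the 2480 genes of mean 10 or more, SD/mean had a median of 0.882 (quartiles 0.752 and 1.05) as deposited and of 0.630 (quartiles 0.472 and 0.907) after scaling, and it was lower after scaling for 2097 of them (84.6%). The size factors were taken from genes that include 1404 of these 2480, so a smaller spread after scaling is partly built in. Spread was lower in genes of higher level, with rho across genes of -0.38 as deposited and -0.39 after scaling, though genes share oocytes and are not independent. Before scaling, a gene's level tended to follow its oocyte's depth: the median over genes of rho with genes above 0 was 0.453, positive for 97.0% of genes, against 0.0619, positive for 59.6%, after scaling. The size factors themselves rose with genes above 0 (rho 0.54, n = 18), so this fall is partly built in as well. The genes of highest rho with depth were Cdc34, a ubiquitin-conjugating enzyme (0.858), Smarcad1 and Med30, and those of lowest rho were Galr3 (-0.437), Skor2, Hoxa9, Pdzd4 and Rbmxl1.

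**Figure D4:**
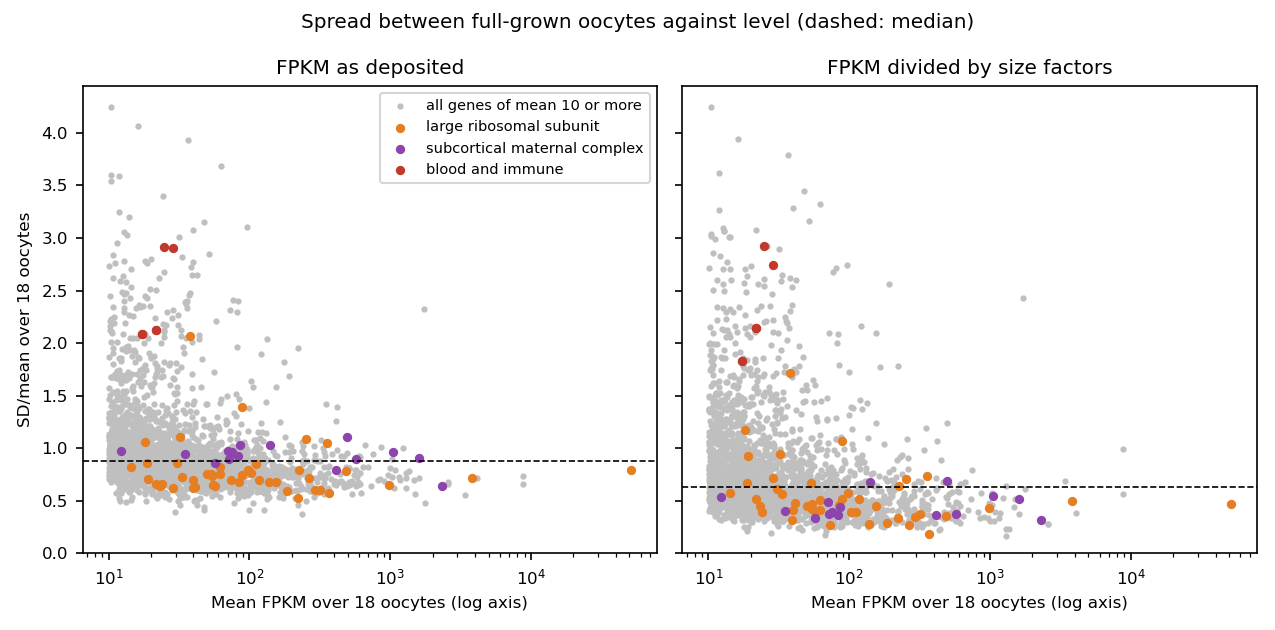
SD/mean over the 18 full-grown oocytes against mean FPKM on a log axis for genes of mean 10 or more, as deposited on 1 panel and divided by size factors on the other, with the dashed line at the median. The median is 0.882 as deposited and 0.630 after scaling, and spread is lower at higher level.

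Scaling changed which genes varied least. As deposited the lowest SD/mean were 4933415F23Rik at 0.375, Prorp, the mitochondrial RNase P nuclease, at 0.390, Relb, an NF-kappaB subunit, at 0.410, Prkar1b, a protein kinase A regulatory subunit, at 0.412, and Rcn2 at 0.417. For Prorp the FPKM were 8.33, 31.0 and 51.5 in the lowest, median and highest oocytes. After scaling these had 0.939, 0.911, 0.630, 0.871 and 0.731, which lie above or at the median of all genes of mean 10 or more, and none of the 12 lowest as deposited was among the 12 lowest after scaling. Scaled, the lowest were Ubb at 0.169, Atp5b, the catalytic beta subunit of ATP synthase, at 0.178, Rpl35 at 0.184, Psmc5, a proteasome ATPase, at 0.196, Puf60, a splicing factor, at 0.213, Micu2, a regulator of mitochondrial calcium uptake, at 0.216, and Spin1, a spindle-associated histone reader of oocytes, at 0.218. These last were chosen after their values were seen. Scaled Ubb ran from 742 in the lowest oocyte through 994 to 1344 in the highest, a narrow range for a gene whose FPKM as deposited spanned 236 to 3927. The 100 genes of lowest spread shared 6 between scales and the 100 of highest spread shared 78.

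Genes seen in few oocytes reach a mean of 10 FPKM only through the oocytes where they are high, so a high SD/mean in them follows from the threshold. The 100 genes of highest SD/mean as deposited were above 0 in a median of 10 oocytes with a median mean of 18.2 FPKM, against 18 oocytes and 24.6 FPKM for all genes of mean 10 or more. Smim27 (SD/mean 4.24) was above 0 in FGO 17 alone, at 188 FPKM, and Mei1, a meiotic recombination gene (4.07), had 281.7 FPKM in FGO 16 and 0.329 in the median oocyte. Amdhd1, of histidine breakdown (3.93), had 617 FPKM in FGO 6, which is 581 reads, and 2210016F16Rik (3.69) had 982 FPKM there. Nnat and Cd24a were high in FGO 5, Cmc4 in FGO 1 and Map7d2, a microtubule-associated protein, in FGO 8, with 193 FPKM against 2.41 in the median oocyte. In the remaining oocytes Amdhd1 was listed with at most 42 reads, in FGO 3, and with none in 12 of them.

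Of the genes of mean 10 or more, 64 had over 50% of their summed FPKM in 1 oocyte, and for 39 of these the oocyte was FGO 1. These 39 genes were of mixed kinds, and those named next were chosen after their values were seen. Ddx39b, an RNA helicase of mRNA export, had 366 FPKM in FGO 1 and 8.62 in the median oocyte, and Rbm25, a splicing factor, had 265 and 8.24. Srsf11 had 383 and 1.36 FPKM, Mki67, a marker of dividing cells, 148 and 2.82, and Hist1h1d, a linker histone, 763 and 17.2. Cd74, S100a9, Cmc4, Tomm5 and Psme1 were among the 39 genes as well. Over all 18 oocytes SD/mean was 2.40 for Ddx39b, 2.24 for Rbm25 and 2.40 for Hist1h1d. Genes chosen for their level in FGO 1 must be less uneven without it, so these values are a description. Among genes of mean 100 or more the highest spreads were Tmsb4x (2.33), Tmsb15b2 (2.04), Anp32b (1.95, 1766 FPKM in FGO 1), Nipsnap2 (1.89, 929.5 in FGO 11), Cox14 (1.82) and Galr3, a galanin receptor (1.69). Galr3 had 0 FPKM in FGO 18, 44.2 in the median oocyte, 990 in FGO 8 and 1065 in FGO 17, from 993 and 956 reads. Identical values in every oocyte were listed for 7 pairs of genes of mean 10 or more, among them Hba-a1 with Hba-a2 and Hbb-b1 with Hbb-b2.

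The spread between oocytes is set beside counting error as a description, since counting error leaves out library preparation and amplification. Reads could be recovered for 1133 genes of mean 10 or more. Their scaled SD/mean had a median of 0.684, against a median of 0.315 from counting error, and the ratio of the 2 had a median of 2.08. For 617 of them (54.5%) the spread was at least 2 times that of counting. A recovered step can be a fraction of a read, so counting error may be larger than stated here.

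Pairs of oocytes differed in how alike they were. Over genes of mean 10 or more, Spearman rho between 2 oocytes had a median of 0.587 over 153 pairs, from 0.353 (FGO 1 with FGO 13) to 0.834 (FGO 2 with FGO 4). The median rho of an oocyte with the others was lowest in FGO 13, 18, 1 and 3, at 0.489, 0.497, 0.4995 and 0.522, and highest in FGO 4, at 0.683. Of these, FGO 1 and FGO 3 had many recovered reads (206985 and 138916) and FGO 13 few (34568). FGO 1 held 197 genes over 4-fold above their median scaled level, against 45 in FGO 6, the fewest.

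FGO 18 differed in another way. The scaled sum of the 25 maturation-activated genes was 3.81 times the median oocyte there, 2.94 times in FGO 17, 2.22 times in FGO 3 and 1.91 times in FGO 5, and lowest at 0.491 in FGO 15. For FGO 17, 16 of the 25 were above 0 and Tcl1 alone had 89.2 of their summed 168 FPKM. In FGO 18, Btg4, an adaptor of the deadenylase complex, had 79.4 FPKM (2.94 in the median oocyte), Plat, tissue plasminogen activator, 69.6 (2.60), Omt2a 90.9 (0) and Bcl2l10, of the Bcl2 family, 100.5 (3.43). Not all members were high: 21 of the 25 were above 0 in FGO 18, while Tcl1b2, Cdc20, Orc6 and Spdya were at 0. Mos, at 9.40 FPKM, was below its median of 12.1. The scaled sum of the meiosis and cell cycle list was lowest in FGO 18, at 0.456 of the median oocyte. That sum rests mostly on Pttg1, Cks2 and Birc5, which averaged 1181, 987 and 473 FPKM, so it does not describe each member. The median gene of the list averaged 13.5 FPKM. Gdf9, at 133 FPKM, and Bmp15, at 51.1 FPKM, were at their lowest in FGO 18 as well. These levels of Btg4 stand for 28 reads in FGO 18 and 38 in FGO 2, where it had 54.6 FPKM. Btg4 was above 0 in 11 of 18 oocytes.

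The 2 oocytes highest for Tmsb4x, FGO 18 and FGO 5, were also highest for Gja1, at 49.4 and 47.2 FPKM. Over the 18 oocytes Pearson r of the pair was 0.79 and Spearman rho 0.29, and without the 2 oocytes farthest from the median in Tmsb4x r was -0.16, so the relation rests on these 2.

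Some genes of the oocyte itself moved together from oocyte to oocyte. After scaling, Zp1, Zp2, Zp3, Nlrp5, Nlrp14, Padi6 and Khdc3, a set chosen after their values were seen, had a rho of 0.585 to 0.986 in their 21 pairs, with a median of 0.765 (Nlrp5 with Nlrp14 0.986, Zp2 with Padi6 0.889, Zp2 with Zp3 0.874). Since the set was chosen for this pattern, its rho is a description. The whole list of zona and secreted factors, which also holds Gdf9 and Bmp15, had a median pairwise rho of -0.0258, and the list of the subcortical maternal complex had 0.490. All 3073960 pairs of genes of mean 10 or more had a median rho of 0.00722. Gdf9, Bmp15 and Npm2, a histone chaperone, were chosen in the same way as a second set, at 0.437 to 0.763, and between the 2 sets rho ran from -0.496 to -0.0258. Scaled Zp2 was 217 in FGO 17, 658 in the median oocyte and 1733 in FGO 10, scaled Padi6 was 334 in FGO 17, 953 in the median oocyte and 2242 in FGO 10, and scaled Gdf9 was 113 in FGO 18, 881 in the median and 2242 in FGO 13. Zp2 and Padi6 were lowest in FGO 17, 5 and 14 and highest in FGO 10, 18 and 6. Points of such a correlation share 18 libraries and 1 scaling, and the scaling matters for the negative values: with every oocyte rescaled to an FPKM sum of 1000000, Bmp15 with Padi6 had a rho of 0.04, against -0.34 under size factors. Ooep with Nlrp5 had 0.43, against -0.22, and Zp2 with Zp3 had 0.83, against 0.87. Without FGO 10 and FGO 18, Gdf9 with Zp2 was -0.14, against -0.40 with all 18.

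**Figure D5:**
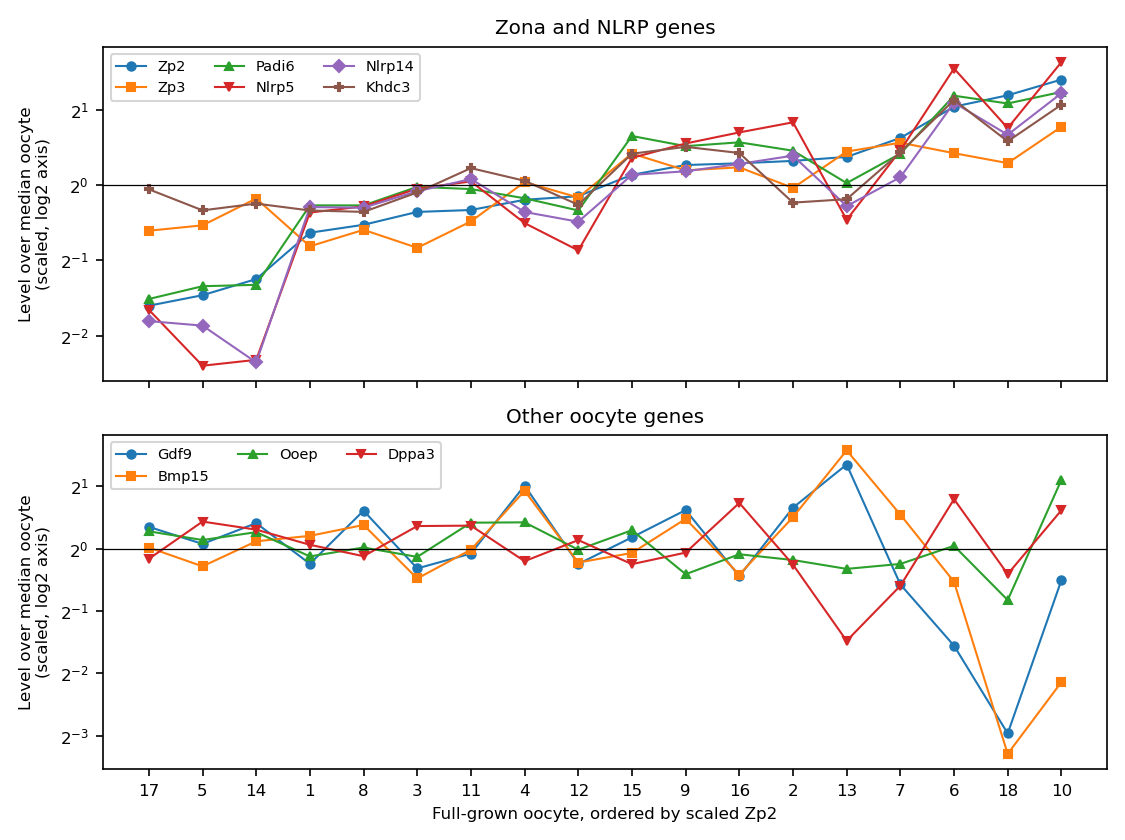
Level over the median oocyte, scaled and on a log2 axis, for genes of the zona and NLRP set (upper panel) and for Gdf9, Bmp15, Ooep and Dppa3 (lower panel), with the 18 full-grown oocytes ordered by scaled Zp2. The zona and NLRP genes follow Zp2 (pairs at rho 0.585 or more), while Gdf9 and Bmp15 are lowest in FGO 18, at the high end of that order.

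The sequence before the start of 4 of these genes is shown because they moved together or apart. Nlrp5 and Khdc3, of the set that moved together, also had a promoter sequence but are not shown. Any link of these sequences to footprint levels was not tested. Zp3 and Padi6, of the set that moved together, Bmp15, of the other set, and Ooep, whose rho with Zp2 was -0.31 (0.25 after rescaling), are shown as RefSeq gives them in build GRCm38.p6, 250 bases up to the transcription start, 5′ to 3′ on the strand of the gene. Capitals mark the E-box letters CANNTG, the site type of FIGLA, and the NOBOX element, searched as TAATTG, with its variant TAATTA, and as a further variant TAGTTG, all on either strand. Marked sites do not overlap. Positions are counted from the start, the base before it being -1.
Zp3, chr5:135979855-135980104, plus strand: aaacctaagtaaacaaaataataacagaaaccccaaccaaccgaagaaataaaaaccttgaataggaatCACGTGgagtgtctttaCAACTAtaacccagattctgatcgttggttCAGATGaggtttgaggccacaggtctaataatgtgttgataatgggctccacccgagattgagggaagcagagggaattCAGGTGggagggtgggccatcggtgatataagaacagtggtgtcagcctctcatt
Padi6, chr4:140742644-140742893, minus strand: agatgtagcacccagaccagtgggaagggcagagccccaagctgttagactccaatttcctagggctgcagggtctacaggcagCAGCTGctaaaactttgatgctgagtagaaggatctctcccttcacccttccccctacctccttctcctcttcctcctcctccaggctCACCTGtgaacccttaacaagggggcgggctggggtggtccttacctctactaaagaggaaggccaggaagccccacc
Bmp15, chrX:6320725-6320974, minus strand: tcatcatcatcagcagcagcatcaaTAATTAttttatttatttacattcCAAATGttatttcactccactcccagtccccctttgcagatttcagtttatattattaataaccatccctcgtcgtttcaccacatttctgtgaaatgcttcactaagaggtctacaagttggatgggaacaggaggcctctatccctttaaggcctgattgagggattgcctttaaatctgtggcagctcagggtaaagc
Ooep, chr9:78378589-78378838, minus strand: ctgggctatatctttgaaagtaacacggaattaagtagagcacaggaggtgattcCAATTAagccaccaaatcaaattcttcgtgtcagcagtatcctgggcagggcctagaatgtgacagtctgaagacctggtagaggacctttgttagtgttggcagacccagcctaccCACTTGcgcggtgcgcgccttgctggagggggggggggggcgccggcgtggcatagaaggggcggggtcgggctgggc
Zp3 held 3 E-boxes, at -181, -134 and -55, and 1 NOBOX element at -164. Padi6 held 2 E-boxes, at -166 and -78, and no NOBOX element. Bmp15 held 1 E-box, at -201, and 1 NOBOX element, at -225, and Ooep held 1 E-box, at -78, and 1 NOBOX element, at -195. Of 27025 promoters of the same length 66.0% held an E-box and 16.3% a NOBOX element, and a match describes letters only, not a bound site.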

How the data were processed

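The authors deposited FPKM for each gene and oocyte, and tail lengths in nucleotides. Cufflinks 2.2.1, STAR 2.5.3a, Bowtie2 2.2.2, Trim Galore 0.4.2 and cutadapt 1.14 are named in the submitters' processing notes. These also name hg19 and mm9, and do not say what each was used for. From these values Python 3.11.15 with numpy 2.4.6, pandas 2.3.3 and matplotlib 3.10.9 computed means, SD, SD/mean, size factors, recovered reads and Spearman rho, over all 20756 genes.

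The oocytes, thresholds and 19 gene lists were chosen with earlier results of these data known. Of 551 list genes, 11 were not in the table. Named genes were the 20 of highest mean, the 12 of lowest and of highest SD/mean (mean 10 or more), the 10 of highest SD/mean among genes above 0 in all 18 and among those of mean 100 or more, the 5 of highest and lowest rho with depth, the top and extreme genes of each list, the markers and the genes beside the threshold. Genes outside this rule were chosen after their values were seen.

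Reads were recovered where a gene's FPKM in at least 4 oocytes were whole multiples of 1 step within 0.03, with up to 12 reads for the lowest value. On simulated data reads were recovered for 7260 of 7805 genes, with every count right in 7259. The simulation drew whole reads, so it did not test shared reads. Reads shared between genes can make a step a fraction of a read, so recovered totals measure relative depth. Counting intervals and floors were not given, since the depth of all genes is unknown. The cause of zeros, whether depth or absence, cannot be told apart. Promoter sequences are from RefSeq, build GRCm38.p6. They were matched by symbol for 6 of 11 genes looked up.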

Additional observations from a re-analysis of the deposited data

How the results depend on the processing

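No paired analysis was possible because the results come from no test, and oocyte numbers only name oocytes. Values below moved by more than the jackknife error, or 1.5 times for a count, from the values reported. When the 9 oocytes with a hemoglobin gene above 0 were left out, 2953 genes were above 0 in all, and the median correlation was 0.637. With every oocyte rescaled to an FPKM sum of 1000000, 5525 genes had a mean of 10 or more, the median SD/mean was 0.633, rho of SD/mean with the mean was -0.43 and the median rho with depth 0.0815. With size factors the median SD/mean was 0.630 and the median rho with depth 0.0619. At a mean of 1 or more the median SD/mean was 1.19 and its rho with the mean -0.58, and at 50 or more 0.770 and -0.22. That rho was -0.33 with the scaled median deviation and -0.19 with the SD of log2(FPKM + 1). The median correlation was 0.515 with Pearson r of log2(FPKM + 0.1). The median rho with depth was 0.608 with genes of 1 FPKM or more as depth and 0.646 with recovered reads. The causes were not tested.

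Leaving out 1 oocyte at a time gave 1854 to 2035 genes above 0 in all, 2330 to 2534 genes of mean 10 or more, a median SD/mean of 0.828 to 0.913, its rho with the mean of -0.40 to -0.36, a median correlation of 0.568 to 0.604, a median rho with depth of 0.407 to 0.537 and a top-20 share of 36.0 to 36.7%. SD/mean of the named genes moved for 98 of 154 after rescaling, 96 of 154 with size factors and 29 of 2771 when leaving out 1 oocyte at a time. The removal of FGO 1 and FGO 3 and the pairs of genes under other scalings were chosen after seeing the data.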

Other observations

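Poly(A) tail lengths were deposited for 1 library of full-grown oocytes that the labels mark SN, a mark the single oocytes do not carry. Of its 6353 genes with a value, 6229 matched the footprint table, with a median of 54.0 nucleotides. The 1487 matched genes above 0 in all 18 oocytes had a median of 59.1, against 52.1 for the 4706 above 0 in 1 to 17. Among the 20 most translated genes 10 had a value, with a median of 66.5. The 87 matched genes among the 100 of lowest scaled spread had a median of 62.2, and the 34 among the 100 of highest had 48.2. Over 1907 genes of mean 10 or more, tail length had a rho of 0.22 with mean FPKM and of -0.24 with scaled SD/mean. These relations are across genes, which share 1 tail library and are not independent replicates.

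The 18 oocytes count as 1 sample and the tails come from 1 library, so nothing here has a replicate of the stage. FPKM are relative, and short genes gain many FPKM per read. Recovered reads cover part of the genes, and reads shared between near-identical genes could not be separated.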
